A study of Mus musculus with 4 samples.

Results

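The genes described here encode the main parts of the major histocompatibility complex (MHC) class I antigen presentation pathway. They were taken by symbol: H2-K1, H2-D1 and B2m for the class I molecule, Tap1, Tap2 and Tapbp for peptide transport and loading, Psmb8, Psmb9 and Psmb10 for the immunoproteasome, and Nlrc5 for the transactivator, 10 of the 54532 genes in the table. RNA was sequenced from mouse cells labelled as primary lung fibroblasts in 4 libraries, 2 of the genotype Calu-WT (WT below) and 2 of the genotype Calu-KO, in a study of calumenin, vimentin and fibrosis. Calumenin, encoded by Calu, is a calcium-binding protein of the secretory pathway. The titles carry the letters NC for the WT libraries and KD for the Calu-KO libraries, and neither the targeting method nor the mouse strain, age or treatment is given in the labels. Nothing in them tells if replicates were separate animals or cultures, so the p-values reflect the spread among these samples alone, and that spread may be technical.

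Nucleated cells show fragments of their own proteins on class I molecules, each a polymorphic heavy chain paired with β2-microglobulin. Proteasomes cut the proteins, the TAP transporter moves the peptides into the endoplasmic reticulum, and tapasin holds the empty molecule at the transporter until a peptide fits. Interferons raise most genes of the pathway, through factors such as those of the IRF family and the transactivator NLRC5, and fibroblasts carry the pathway at a basal level.

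The promoters of 4 members are shown because the results turn on the genes behind them: B2m, the most abundant member, Tap1, the member that passed the test, and the paired heavy chain genes H2-K1 and H2-D1. Each window runs from 250 bases before to 50 after a RefSeq start site on GRCm38.p6, 5′ to 3′ on the strand of the gene. B2m is chr2:122147437-122147736 on the plus strand, H2-K1 chr17:34000298-34000597 on the minus strand (1 of 2 windows for that gene), H2-D1 chr17:35262844-35263143 on the plus strand and Tap1 chr17:34187306-34187605 on the plus strand. Capitals mark matches, on either strand, to the motifs described next.
B2m: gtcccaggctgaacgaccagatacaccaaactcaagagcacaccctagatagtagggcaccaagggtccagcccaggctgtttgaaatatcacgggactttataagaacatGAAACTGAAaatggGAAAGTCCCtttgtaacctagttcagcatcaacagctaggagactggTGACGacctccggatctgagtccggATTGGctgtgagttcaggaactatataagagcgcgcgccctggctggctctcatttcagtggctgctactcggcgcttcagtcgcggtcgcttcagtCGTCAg
H2-K1: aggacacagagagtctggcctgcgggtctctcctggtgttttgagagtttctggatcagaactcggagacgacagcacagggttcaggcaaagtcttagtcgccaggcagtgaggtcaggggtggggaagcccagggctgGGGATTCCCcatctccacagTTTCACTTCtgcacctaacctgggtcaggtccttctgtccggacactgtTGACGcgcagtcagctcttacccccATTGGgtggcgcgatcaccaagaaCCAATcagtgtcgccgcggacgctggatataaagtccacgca
H2-D1: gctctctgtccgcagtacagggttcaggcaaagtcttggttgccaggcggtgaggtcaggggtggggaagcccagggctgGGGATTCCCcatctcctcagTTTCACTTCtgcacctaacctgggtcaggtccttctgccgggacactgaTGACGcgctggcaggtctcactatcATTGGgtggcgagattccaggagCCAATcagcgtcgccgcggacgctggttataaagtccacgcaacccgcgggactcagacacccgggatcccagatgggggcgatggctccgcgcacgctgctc
Tap1: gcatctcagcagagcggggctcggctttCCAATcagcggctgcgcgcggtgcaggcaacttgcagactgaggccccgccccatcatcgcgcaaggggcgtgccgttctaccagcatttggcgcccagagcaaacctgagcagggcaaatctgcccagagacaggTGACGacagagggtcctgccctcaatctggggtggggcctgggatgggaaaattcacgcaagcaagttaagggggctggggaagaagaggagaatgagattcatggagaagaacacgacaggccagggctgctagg

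Windows were found for 8 of the 10 members (all but Tap2 and Nlrc5). The IRF-type letters GAAANNGAA were in the B2m window, as in 8.56% of the 32851 windows in the table. CCAAT was in the windows of 6 members (B2m, H2-D1, H2-K1, Psmb9, Tap1 and Tapbp) and in 37.4% of all windows. TGACG, the core of a cyclic AMP response element, was in those of 5 (B2m, H2-D1, H2-K1, Psmb9 and Tap1) and in 20.8% of all. The kappa B form GGGNNTTTC was in the B2m window, on the strand opposite to that printed, as in 4.36% of all. The letters TTCNNNGAA were in the Psmb8 window, as in 8.30% of all. Searched after the windows were seen, GAANNGAAA (7.52% of all) and the kappa B form GGGATTCCC (0.353%) were in both heavy chain windows. The RefSeq start sites of Tap1 and Psmb9 face away from each other, and their windows, on opposite strands, share 275 bases.

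Recovered reads numbered 15635448 to 16510048 per library, and a single read per kb of gene equalled 0.0591 to 0.0684 FPKM (fragments scaled to gene length and library size, a level per length). Calu stood at 178, 177, 14.9 and 10.9 FPKM in WT replicates 1 and 2 and Calu-KO replicates 1 and 2 (log2 change -3.70 ± 0.17, adjusted p = 0.00493, limma), lower in the libraries labelled Calu-KO. Vim stood at 531 to 650 FPKM and Col1a1 at 121 to 188 FPKM. The fibroblast genes Dcn, Lum and Tcf21 had no reads in any library, Thy1 had 2 to 6 reads and Fap 1 read in all, so the lung fibroblast label was only partly borne by its markers. Calu-KO replicate 2 stood apart from the other 3 libraries: its mitochondrial share of reads was 4.0%, against 2.43% to 2.53%, and its 50 genes with the most reads took 13.9%, against 11.1% to 11.7%.

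Class I pathway RNA was lower in both Calu-KO libraries than in both WT libraries for 9 of the 10 members, and Tapbp was the exception. The difference passed the test for 1 member, Tap1, which fell 2.04-fold. Over all 11885 genes tested, 2.77% were called in either direction and 1.83% as lower, and 29.7% were lower in Calu-KO with no overlap between groups. The median log2 change of the members was -0.54, against 0.01 over all tested genes, and all 10 members passed the filter on low values. In RNA from bulk cultures, fewer cells of a type and less RNA per cell cannot be told apart.

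**Figure D1:**
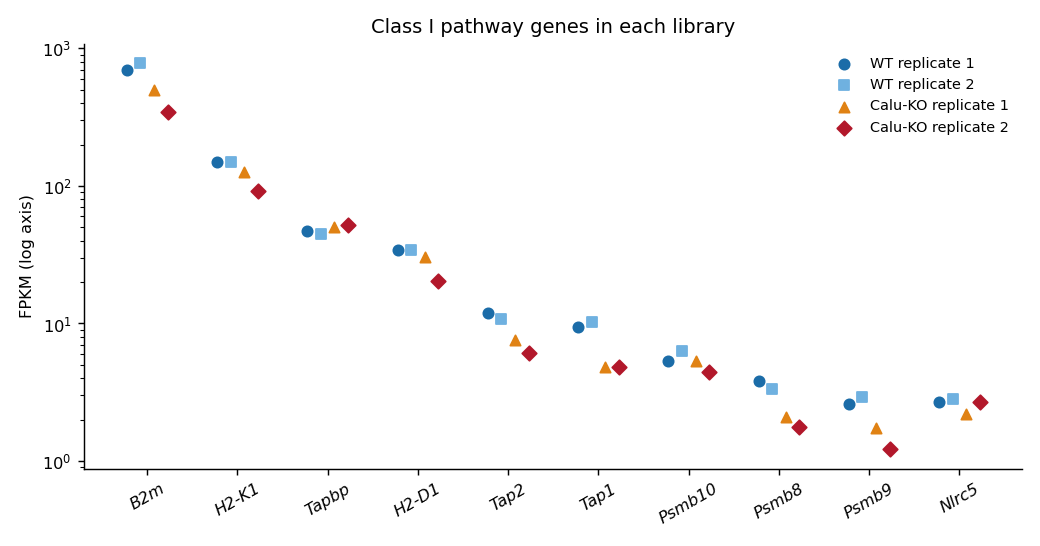
FPKM (log axis) of the 10 members in each of the 4 libraries, ordered by WT mean; each point is 1 library. B2m runs from 779 FPKM in WT replicate 2 to 344 FPKM in Calu-KO replicate 2, and the Calu-KO points lie below the WT points for every member except Tapbp, narrowly so for Psmb10 and Nlrc5.

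The members spanned more than 2 orders of magnitude. In WT the order of mean levels per length was B2m, H2-K1, Tapbp, H2-D1, Tap2, Tap1, Psmb10, Psmb8, Psmb9 and Nlrc5, from 739.9 down to 2.76 FPKM. Neighbours in this order were separated in both libraries except Psmb9 and Nlrc5, whose libraries overlapped. In Calu-KO the order was kept down to Tap2, then Psmb10 and Tap1 overlapped at 4.88 and 4.83 FPKM, and Nlrc5, Psmb8 and Psmb9 followed.

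B2m encodes β2-microglobulin, the invariant light chain of the class I molecule, on chromosome 2 (122147686 to 122153083, plus strand, mm10), away from the MHC. It stood at 701 and 779 FPKM in WT against 494 and 344 FPKM in Calu-KO. Both Calu-KO libraries lay below both WT libraries, and the Calu-KO libraries were themselves far apart, at 66.8% and 46.5% of the WT mean. The WT mean was 739.9 ± 55.5 FPKM and the Calu-KO mean 419 ± 106 FPKM (SD, n = 2 each), 1.77-fold lower, a log2 change of -0.84 ± 0.21 (SE) that missed the threshold (adjusted p = 0.105, limma). With 9866, 11131, 7186 and 4320 reads, counting error was a small part of that spread. Without Calu-KO replicate 1 the log2 change was -1.10 and without Calu-KO replicate 2 it was -0.58. Such fits take their spread from the WT libraries alone, so passing the test in them says little.

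H2-K1 encodes the heavy chain H2-K (chromosome 17, 33996017 to 34000333, minus strand) and H2-D1 the heavy chain H2-D (chromosome 17, 35262730 to 35267499, plus strand). H2-K1 stood at 149.6 and 149 FPKM in WT against 126 and 92.0 FPKM in Calu-KO. H2-D1 stood at 34.2 and 34.1 FPKM in WT against 30.4 and 20.3 FPKM in Calu-KO. For both genes the WT libraries were nearly equal, Calu-KO replicate 1 was slightly lower and Calu-KO replicate 2 was clearly lower, with no overlap between groups. The log2 changes were -0.47 ± 0.18 for H2-K1 (adjusted p = 0.193) and -0.44 ± 0.20 for H2-D1 (adjusted p = 0.249), both short of the limma threshold. Without Calu-KO replicate 1 the log2 changes were -0.69 for H2-K1 and -0.72 for H2-D1, and without Calu-KO replicate 2 they were -0.24 and -0.16. The heavy chain genes resemble each other and their relatives: 3.59% of the 100-base stretches of the H2-D1 transcripts and 0.957% of those of H2-K1 were also in another gene, and the authors' handling of such reads was not given in any source used here.

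The light chain was compared with each heavy chain within libraries. The ratio of B2m to H2-K1 FPKM was 4.69 and 5.23 in WT against 3.92 and 3.74 in Calu-KO. The ratio of B2m to H2-D1 FPKM was 20.5 and 22.8 in WT and 16.3 and 16.96 in Calu-KO. Both ratios were lower in each Calu-KO library than in each WT library, and the Calu-KO libraries were close to each other although their chain levels were not. An exact permutation test with 2 libraries per group cannot give a two-sided p below 0.333.

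Tap1 and Tap2 encode the chains of the peptide transporter, which lie close together on chromosome 17 (Tap1 34187553 to 34197225, Tap2 34203527 to 34216321, both plus strand) with Psmb8 between them. Tap1 stood at 9.45 and 10.3 FPKM in WT against 4.83 and 4.84 FPKM in Calu-KO. It was the member with the closest Calu-KO libraries, 48.9% and 49.0% of the WT mean, nearer to each other than their counting errors of 4.73% and 5.08%. Its mean fell from 9.87 ± 0.596 to 4.83 ± 0.00606 FPKM (SD, n = 2 each), 2.04-fold, a log2 change of -0.90 ± 0.11 (adjusted p = 0.0358, limma). Tap1 was called in 13 of 16 alternative analyses. It lost the call without WT replicate 1 (adjusted p = 0.270), without WT replicate 2 (adjusted p = 0.362) and with no filter on low values (adjusted p = 0.115), with log2 changes of -1.03 to -0.83 over all 16 limma fits.

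Tap2 stood at 12.0 and 10.7 FPKM in WT against 7.63 and 6.14 FPKM in Calu-KO. The groups did not overlap, and the mean of 6.88 ± 1.06 FPKM in Calu-KO was 60.6% of the WT mean of 11.4 ± 0.910 FPKM. The log2 change of -0.65 ± 0.14 missed the threshold (adjusted p = 0.0900, limma). Tap2 passed in 3 of 16 alternatives: on recovered reads by voom (adjusted p = 0.0461) and on leaving out either Calu-KO library. It was -0.79 without Calu-KO replicate 1 and -0.52 without Calu-KO replicate 2. Tap2 was above Tap1 in all 4 libraries on this scale per length.

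Tapbp encodes tapasin, the bridge between the transporter and the empty class I molecule (chromosome 17, 33915899 to 33929288, plus strand). Tapbp stood at 47.2 and 44.9 FPKM in WT against 50.4 and 51.8 FPKM in Calu-KO. Both Calu-KO libraries were above both WT libraries, by a log2 difference of 0.15 ± 0.11 that did not pass (adjusted p = 0.412, limma). The sign held in 16 of 16 alternatives, at 0.04 when rescaled by total reads and 0.32 with the trend on GC content and gene length removed. Over the gene's exons 24.9% of bases are shared with the antisense gene Gm19412, whose reads cannot be told apart from those of Tapbp where strand was not used in counting. A further 149 bases (4.11%) are shared with Zbtb22 (log2 change -0.49) on the same strand, where strand cannot separate the reads. These shares are of 3628 exon bases in GENCODE M21, against a deposited gene length of 3296, so shared bases may lie outside the counted exons.

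**Figure D2:**
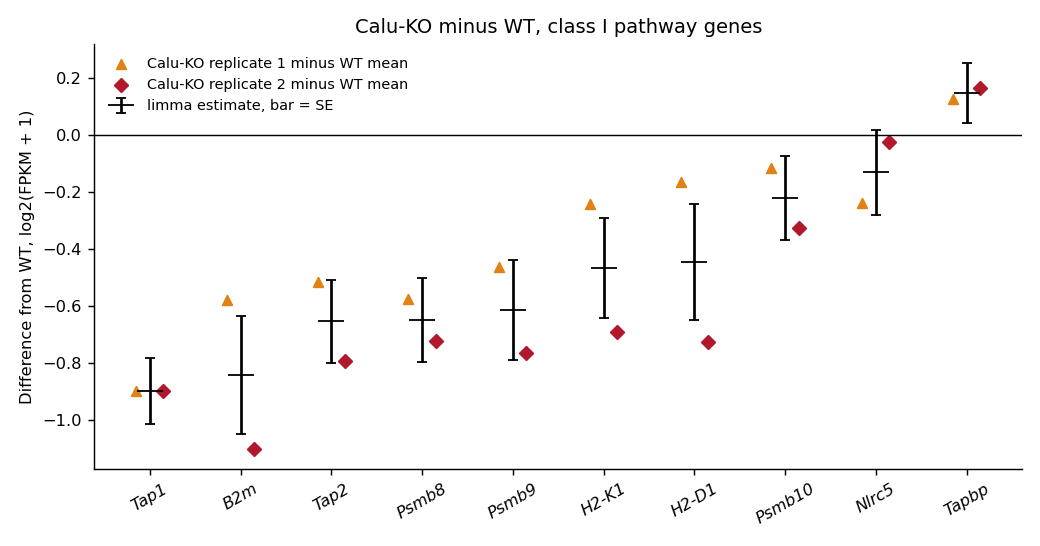
Difference from the WT mean on the log2(FPKM + 1) scale for the 10 members; symbols are the 2 Calu-KO libraries, and the bar is the limma estimate with its SE. Tap1 has both libraries at -0.90, B2m spreads from -0.58 to -1.10, and Tapbp alone lies above 0.

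Psmb8, Psmb9 and Psmb10 encode the inducible catalytic subunits that replace Psmb5, Psmb6 and Psmb7 in the immunoproteasome, which changes which peptide ends are made. Psmb8 lies on chromosome 17 from 34197721 to 34201454 (plus strand) and Psmb9 from 34181988 to 34187764 (minus strand), while Psmb10 lies on chromosome 8 from 105935735 to 105938444 (minus strand). These were low in all libraries. Psmb8 stood at 3.79 and 3.37 FPKM in WT against 2.08 and 1.78 FPKM in Calu-KO. Psmb9 stood at 2.60 and 2.93 FPKM in WT against 1.73 and 1.22 FPKM in Calu-KO. Each was lower in both Calu-KO libraries, at 53.8% and 53.2% of its WT mean.

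The log2 changes were -0.65 ± 0.15 for Psmb8 (adjusted p = 0.0928) and -0.61 ± 0.18 for Psmb9 (adjusted p = 0.133), both short of the limma threshold. They rest on few reads. Over both libraries of each group, Psmb8 had 323 reads in WT and 167 in Calu-KO, which puts Calu-KO at 54.1% of WT with a 95% counting interval of 44.6% to 65.4%. For Psmb9 the reads were 334 and 172 and the interval was 44.6% to 65.0%. Such intervals cover counting error only. Without Calu-KO replicate 1 the log2 changes were -0.72 for Psmb8 and -0.76 for Psmb9, and without Calu-KO replicate 2 they were -0.57 and -0.46.

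Psmb10 differed little. It stood at 5.34 and 6.36 FPKM in WT against 5.31 and 4.46 FPKM in Calu-KO. The groups were separated by the small gap between WT replicate 1 and Calu-KO replicate 1, and the log2 change was -0.22 ± 0.15 (adjusted p = 0.388, limma). With the trend on GC content and gene length removed its sign turned, to 0.04, and it was -0.11 without WT replicate 2 or Calu-KO replicate 2.

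Each inducible subunit was also set against the constitutive subunit it replaces. Psmb8 FPKM was 9.52% and 7.50% of Psmb5 FPKM in WT and 6.65% and 6.67% in Calu-KO. Psmb9 FPKM was 4.83% and 5.46% of Psmb6 FPKM in WT and 3.402% and 2.88% in Calu-KO. Both ratios were lower in each Calu-KO library, with the smallest p that the design allows (exact permutation test, two-sided p = 0.333 each). Psmb10 FPKM was 16.2% and 18.0% of Psmb7 FPKM in WT and 18.1% and 16.4% in Calu-KO, so the groups overlapped (exact permutation test, two-sided p = 0.667). The constitutive subunits did not pass the limma test, with log2 changes of -0.54 for Psmb5 (adjusted p = 0.106), -0.21 for Psmb6 and -0.27 for Psmb7. Without Calu-KO replicate 1 these changes were -0.65, -0.34 and -0.32. Without Calu-KO replicate 2 Psmb5 was -0.43 and Psmb6 was -0.08. With the GC and length trend removed Psmb5 was -0.24 and Psmb6 -0.04.

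**Figure D3:**
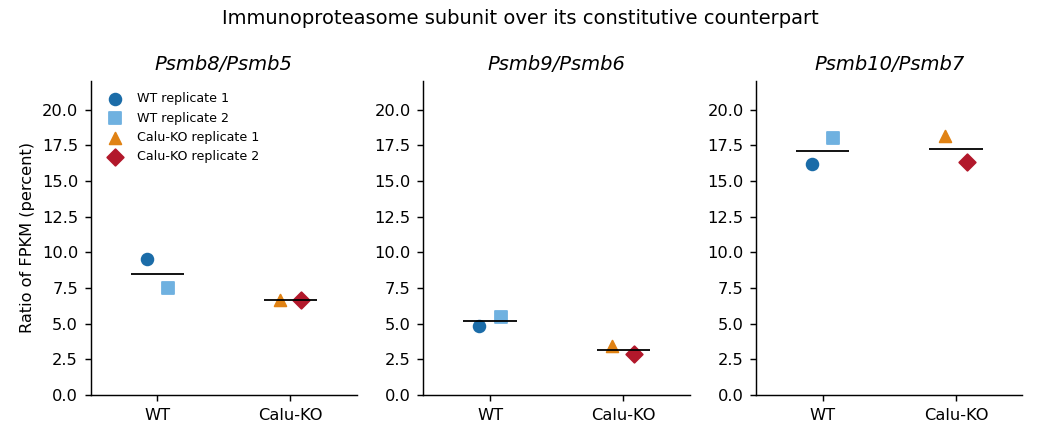
FPKM of each immunoproteasome subunit as a percentage of its constitutive counterpart, 1 point per library, with the group mean as a line. Psmb9 over Psmb6 goes from 4.83% and 5.46% in WT to 3.402% and 2.88% in Calu-KO, while Psmb10 over Psmb7 lies at 16.2% to 18.1% in both groups.

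Nlrc5 encodes the transactivator of class I genes (chromosome 8, 94434356 to 94527272, plus strand). It stood at 2.70 and 2.81 FPKM in WT against 2.19 and 2.70 FPKM in Calu-KO. Calu-KO replicate 2 was level with WT replicate 1 at the printed precision, and the log2 change was -0.13 ± 0.15 (adjusted p = 0.606, limma), -0.02 without Calu-KO replicate 1 and -0.24 without Calu-KO replicate 2. The library with the lowest B2m, H2-K1 and H2-D1 was not the library with the lowest Nlrc5, and a link between these levels was not tested. Across the members Calu-KO replicate 2 was below Calu-KO replicate 1 for 7 of 10, against 47.4% of all tested genes, and the median log2 change was -0.35 in replicate 1 and -0.72 in replicate 2.

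Of the other class I and class I-like heavy chains, 7 of the 25 in the table passed the filter, and 0 of them rose or fell in the test. All 7 had negative log2 changes, with a median of -0.42. Of these, H2-Q1, H2-Q4 and H2-T22 lie within 1 Mb of a chromosome 17 member, and H2-M3 lies further along that chromosome. Genes outside the lists within 1 Mb of those members had a median of -0.38. Fcgrt, Hfe and Mr1 lie on other chromosomes. H2-Q4 stood at 32.5, 27.9, 27.6 and 19.1 FPKM (WT replicates 1 and 2, Calu-KO replicates 1 and 2), and Fcgrt, the neonatal Fc receptor chain that also pairs with β2-microglobulin, at 18.7, 17.3, 12.4 and 8.63 FPKM. H2-T22 had a log2 change of -0.42. Of 19 genes for peptide trimming and loading partners, 0 passed, with a median of 0.02. The most abundant were the lectin chaperone Calr (-0.44), the disulfide isomerase Pdia3, which sits in the loading complex (-0.42), and Pdia4 (-0.25). Pdia4 stood at 383 and 385 FPKM in WT against 273 and 381 FPKM in Calu-KO, so its value rests on Calu-KO replicate 1. It was -0.012 without that library and -0.49 without Calu-KO replicate 2. Fcgrt had a log2 change of -0.74. Without Calu-KO replicate 1 Calr was -0.50, Pdia3 -0.47, H2-Q4 -0.63, Fcgrt -0.98 and H2-T22 -0.44. Without Calu-KO replicate 2 they were -0.37, -0.36, -0.12, -0.50 and -0.39.

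No list of proteasome genes gave a call. For the 11 other subunits of the 20S core the median log2 change was -0.09, with -0.38 for Psma5, -0.24 for Psmb4 and 0.46 for Psma6. For 9 activators and assembly factors it was -0.13, with 0.02 for Psme3, -0.55 for Psmg2 and -0.41 for Psmg4. Psmg2 was -0.83 without Calu-KO replicate 1 and -0.27 without Calu-KO replicate 2. Psmb4 was -0.38 in the first of those fits and -0.09 in the other. With the GC and length trend removed Psmg4 was -0.15, Psma5 -0.25 and Psmb4 -0.06. Of 18 tested genes for interferon receptors and signalling, 0 passed, with a median of -0.07. Of the 18, 10 had negative log2 changes and 8 positive. The receptor genes Ifnar1 (-0.45), Ifnar2 (-0.45), Ifngr1 (-0.35) and Ifngr2 (-0.49) were lower in both Calu-KO libraries than in both WT libraries. They were named after their values were seen. The level of Irf1, an interferon-induced activator of class I promoters, was 3.95, 3.89, 7.50 and 4.54 FPKM, higher in both Calu-KO libraries (log2 change 0.48, adjusted p = 0.256, limma). It was 0.79 without Calu-KO replicate 2 and 0.17 without Calu-KO replicate 1. The most abundant genes of that list had log2 changes of 0.41 for Ptpn11, 0.26 for Jak1 and -0.05 for Ptpn2. Without Calu-KO replicate 1 Ptpn11 was 0.57 and Jak1 0.45, and without Calu-KO replicate 2 they were 0.25 and 0.07.

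Of 20 genes for factors and cofactors of class I promoters and for regulators of those factors, 0 passed, and the median was 0.12. Rfx5, part of the complex at the X box of MHC promoters, had a log2 change of 0.01, the NF-kappa B subunit gene Rela 0.04 and the CREB-family gene Atf1 -0.44. Of the other NF-kappa B subunit genes in the list, Relb had -0.75 (adjusted p = 0.0931, limma), Nfkb2 -0.20 and Nfkb1 0.14. These were named after their values were seen. Xpo1, which encodes a nuclear export receptor and not a promoter-binding factor, had 0.10. Without Calu-KO replicate 1 Atf1 was -0.52 and Xpo1 0.250, and without Calu-KO replicate 2 they were -0.37 and -0.052. Among 11 tested interferon-induced genes, Samhd1, a nucleotide-cleaving restriction factor, rose from 14.3 and 14.5 to 25.1 and 27.5 FPKM (log2 change 0.82, adjusted p = 0.0391, limma), and the median was -0.06. Of the 11, 7 had negative log2 changes and 4 positive. Bst2, which encodes tetherin, stood at 38.9 and 34.2 FPKM in WT against 22.5 and 10.004 FPKM in Calu-KO (log2 change -1.22, adjusted p = 0.141), and Ifi27 at 31.1 and 30.9 FPKM against 19.7 and 15.5 FPKM (log2 change -0.79, adjusted p = 0.0672). Neither passed the limma test. Below the filter, Iigp1 had 56, 34, 4 and 3 reads and Oas2 80, 98, 21 and 8 reads, lower in both Calu-KO libraries and not tested. In the other direction, Ifit2 stood at 10.4 and 11.4 FPKM in WT against 13.7 and 16.9 FPKM in Calu-KO (log2 change 0.45, adjusted p = 0.151, limma). Ifit3, below the filter, had 13, 12, 14 and 17 reads. Bst2, Ifi27, Iigp1, Oas2, Ifit2 and Ifit3 were named after their values were seen. Samhd1 passed in 12 of 16 alternatives, and not without WT replicate 1 (adjusted p = 0.384) or WT replicate 2 (adjusted p = 0.359), nor when rescaled by total reads (0.0518) or unfiltered (0.113).

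Among the lists of related genes, the log2 changes farthest from 0 were those of 2 natural killer receptor ligands and of a class II gene. Cd74, the invariant chain of class II, stood at 114 and 101 FPKM in WT against 50.04 and 31.4 FPKM in Calu-KO, with no overlap (log2 change -1.41 ± 0.24, adjusted p = 0.0571, limma). It passed in 6 of 16 alternatives, among them the fits without Calu-KO replicate 1 (-1.74) and without Calu-KO replicate 2 (-1.08). The class II chain genes H2-Aa, H2-Ab1 and H2-Eb2 had no reads, and the class II transactivator Ciita had 13, 8, 5 and 5 reads. The median of the 4 tested class II genes was -0.46, and 0 passed. Of these, H2-DMa, H2-DMb1 and H2-DMb2 lie within 1 Mb of Tap1, where other genes were also lower. Of 8 tested ligands of natural killer cell receptors and checkpoint ligands, 2 fell and the median was -0.25. Of the 8, 6 had negative log2 changes and 2 positive. In the positive direction, Ulbp1 stood at 20.8 and 21.5 FPKM in WT against 25.4 and 29.4 FPKM in Calu-KO. Its log2 change of 0.36 did not pass (adjusted p = 0.168, limma), and it was named after its values were seen. Raet1d, a ligand of the activating receptor NKG2D, fell from 17.4 and 15.9 to 4.35 and 3.47 FPKM (log2 change -1.85, adjusted p = 0.0167, limma). Raet1e, another NKG2D ligand, fell from 4.89 and 4.82 to 1.12 and 1.08 FPKM (log2 change -1.48, adjusted p = 0.0254, limma). Raet1e lost its call without WT replicate 1 (adjusted p = 0.0930) or WT replicate 2 (adjusted p = 0.0950), and both genes lost it with no filter (0.110 for Raet1d and 0.113 for Raet1e). Raet1 genes resemble one another, and on chromosome 10 the span of Raet1e (22158569 to 22374139) contains that of Raet1d (22360552 to 22374139, same strand). The split of reads between them is uncertain, so the 2 calls may not be separate.

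**Figure D4:**
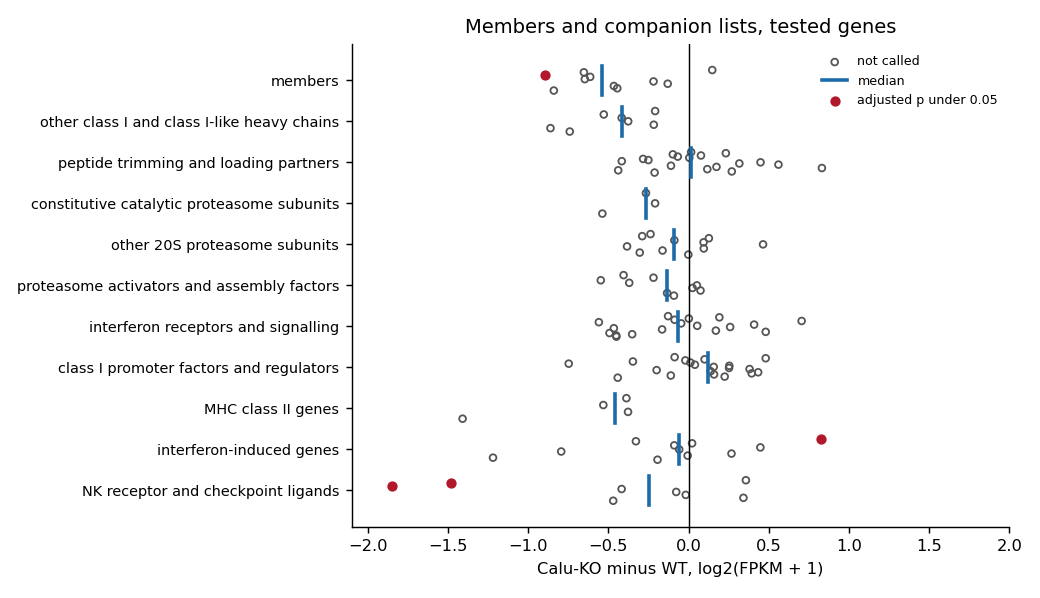
Log2 change (Calu-KO minus WT) of each tested gene of the members and of 10 lists of related genes; filled points passed the limma test and bars are list medians. Members centre on -0.54, other class I chains on -0.42, trimming and loading partners on 0.02 and promoter factors and regulators on 0.12. Most members and part of the other class I and class II genes lie in a stretch of chromosome 17 where other genes were also lower.

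Of the 10 members, 7 lie in the MHC region of chromosome 17, where other genes were also lower. The 97 tested genes within 1 Mb of those members, members left out, had a median log2 change of -0.38, and 84 of them were negative. Tested genes elsewhere on chromosome 17 numbered 490, with a median of 0.00 and 50.2% negative. The difference between neighbourhood and chromosome was in both Calu-KO libraries, with neighbour medians of -0.33 and -0.46, against 0.02 between the WT libraries. Of the neighbours, 4 fell and 0 rose: Cdsn (45.4, 45.0, 13.0 and 11.9 FPKM), Atf6b, Wdr46 and Rpp21, named after their values were seen. All 4 lost the call with no filter on low values. Leaving out WT replicate 1 or WT replicate 2 ended the calls of Atf6b (adjusted p = 0.345 and 0.267), Rpp21 (0.166 and 0.206) and Wdr46 (0.525 and 0.4995), and Wdr46 passed in 4 of 16 alternatives. Rpp21 passed in 9 of 16, and also lost its call with a pseudocount of 0.1 (0.0531), a filter of 0.5 FPKM (0.0554), rescaling by total reads (0.0802) and moderation without a trend (0.0543). The 7 members on chromosome 17 had a median of -0.61. Neighbours of B2m (23 genes), Psmb10 (43) and Nlrc5 (27) within 1 Mb had medians of -0.01, -0.05 and -0.08.

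GC content goes with the neighbourhood: the median was 55.2% in the neighbours and 49.4% over all tested genes. With the trend of log2 change on GC content and gene length removed, the neighbours' median was -0.24, with 77 of 97 negative, and the members' median was -0.40. Without the genes of the related lists, 91 neighbours remained and the median was -0.38. Tap1 and Psmb9 overlap by 212 bases on opposite strands, 3.87% of the exons of Tap1 and 5.79% of those of Psmb9, and the strand setting of the counting was not given in any source used here. Tap2 shares 533 exon bases with the antisense gene Gm15821, and Psmb8 shares 498 with Gm20496. For Psmb8 the exons used for the overlap cover 3381 bases, against a deposited gene length of 2736, so shared bases may lie outside the counted exons.

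**Figure D5:**
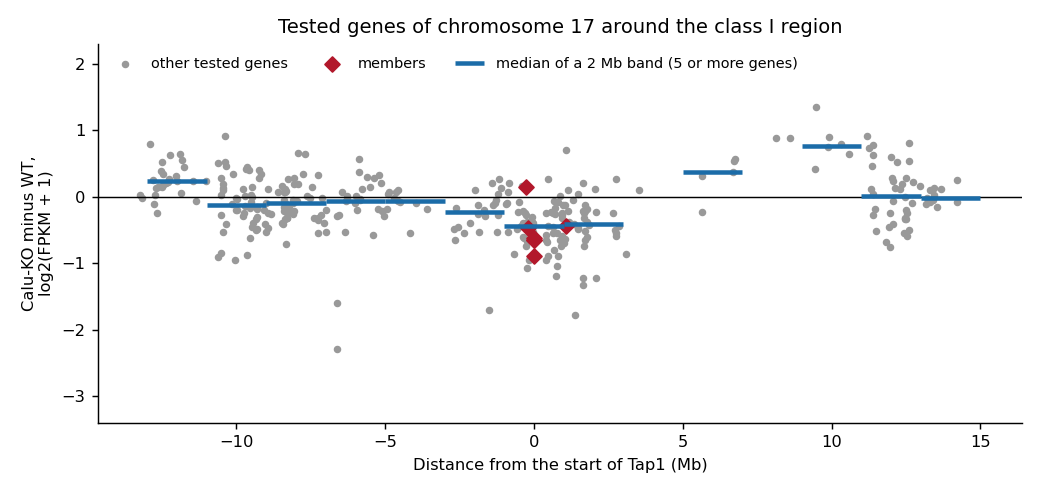
Log2 change of tested chromosome 17 genes by distance from the Tap1 start, with members as diamonds and medians of 2 Mb bands (5 or more genes) as bars. The band from -1 to 1 Mb lies at -0.45, the next, from 1 to 3 Mb, at -0.40, and that from -3 to -1 Mb at -0.23. Further on, the band from 5 to 7 Mb lies at 0.38 and that from 9 to 11 Mb at 0.77. The band from 11 to 13 Mb lies at 0.02 and that from 13 to 15 Mb at -0.02.

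Markers of other cell types were examined because class I and class II levels differ between cell types. Of 3 tested macrophage and dendritic cell markers, Lyz2 fell, and the summed level of the 14 was 17.4 and 17.8 FPKM in WT against 8.18 and 7.41 FPKM in Calu-KO. Of those 14, Adgre1, Itgam, Mrc1 and Siglecf had no reads, and the leukocyte gene Ptprc had 1 read in each WT library and 0 in each Calu-KO library. None of 12 lymphocyte and natural killer cell markers reached 1 FPKM on average, with sums of 1.01, 0.903, 0.486 and 0.371 FPKM and 4 genes at 0 reads. The 8 endothelial markers summed to 0.276, 0.257, 0.206 and 0.131 FPKM, with 4 at 0 reads. Epithelial markers (10) summed to 8.64, 9.24, 5.76 and 5.08 FPKM and mesothelial markers (6) to 36.0, 32.9, 25.9 and 22.6 FPKM, and Krt8, which is in both lists, fell. Of 9 tested fibroblast markers, Col3a1 fell, and 6 had negative log2 changes and 3 positive. Col1a2 stood at 234 and 229 FPKM in WT against 343 and 394 FPKM in Calu-KO (log2 change 0.67, adjusted p = 0.0721, limma). Col1a1 was also higher in both Calu-KO libraries (log2 change 0.40, adjusted p = 0.208, limma). Without WT replicate 1 or WT replicate 2 the adjusted limma p was 0.0655 and 0.0805 for Lyz2, 0.0930 and 0.0632 for Krt8 and 0.0558 and 0.0635 for Col3a1. The fibroblast markers summed to 1373, 1351, 1309 and 1579 FPKM. The sums for the other cell types were lower in both Calu-KO libraries, though some single markers were not, and they rested on few genes or few reads. Msln made up most of the mesothelial sum (33.0, 30.4, 25.2 and 22.1 FPKM), while Krt7 had 26, 24, 60 and 40 reads. Cd3g, with 33, 38, 14 and 17 reads, made up most of the lymphocyte sum. No endothelial marker had more than 20 reads in any library. The part of such cells in the class I difference was not tested.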

How the data were processed

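RNA of 2 WT and 2 Calu-KO libraries was sequenced as paired-end reads and aligned with HISAT2 2.0.5, per the labels' protocols, on mm10, per the submitters' processing notes. Counter, annotation and strand setting were not given in the sources used here. FPKM values of 54532 genes were deposited by the authors. FPKM times gene length gave whole reads for 100% of values (tolerance 0.001), so reads per gene were recovered; the library sizes these steps imply differ from the recovered totals, so columns carry a scaling between libraries. The 11885 genes averaging 1 FPKM or more were compared as log2(FPKM + 1), which understates the change of low genes, with limma 3.58.1 in R 4.3.3 (trended eBayes, two-sided, Benjamini-Hochberg adjustment over all tested genes, threshold 0.05). Folds are ratios of mean FPKM. The steps were tested on simulated data.

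The members and lists were chosen with earlier results of these data known. Named genes were the 10 members, Calu, the genes past the threshold in each list or else up to 3 with the highest mean, the constitutive subunits, and the regulators Irf1, Rfx5 and Ciita; 1 further gene that the rule took is not reported here. Alternatives changed the pseudocount, filter, scaling, moderation, replicate block, GC and length trend, or left out 1 library, and voom was run on recovered reads. Exon overlaps came from GENCODE M21, and promoters from RefSeq. The 2 Mb bands were drawn after the data were seen.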

Additional observations from a re-analysis of the deposited data

How the results depend on the processing

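The labels give both groups replicate numbers 1 and 2 but do not pair them, and the differences of replicate 1 minus 2 in WT and Calu-KO correlated at 0.0153 across genes. With the replicate block, 493 genes were called, against 329 without it, and 1 member (Tap1) was called in both. With no filter 0 genes and 0 members were called by limma (3886 genes at an unadjusted p under 0.05), and voom, with the filter, called 830. Calls numbered 197 rescaled by total reads (45 higher and 152 lower, against 112 and 217), 605 with the GC and length trend removed and 864 with the block as well. Leaving out 1 library, with the lone library assumed to vary like the others, gave 42 to 5731 calls (WT replicate 1 left out, 48; WT replicate 2, 42; Calu-KO replicate 1, 5731; Calu-KO replicate 2, 2052) and 0 to 7 members. Members called were 3 by voom and 2 with the block and the GC trend removed. The neighbours' median was -0.48 rescaled and -0.24 with the GC trend removed, with or without the block. The cause of these shifts was not tested. The Psmb10/Psmb7 log2 ratio (0.01) was -0.063 without WT replicate 1, -0.060 without Calu-KO replicate 1 and up to 0.092 without another library, and Psmb10 turned to 0.043 with the GC trend removed, with or without the block. Of named genes near 0, others turned sign. Rescaled, Xpo1 was -0.0082, Psme3 -0.083, Rela -0.067 and Rfx5 -0.059. With the GC trend removed, with or without the block, Xpo1 was -0.096 and Rfx5 -0.011. Leaving out 1 library, Xpo1 ran from -0.052 to 0.250, Psme3 from -0.016 to 0.064, Rela from -0.0017 to 0.080, Rfx5 from -0.081 to 0.104 and Ptpn2 from -0.275 to 0.182. Rescaling moved the median of all genes by -0.096. The members' median stayed between -0.72 and -0.35 over 16 alternatives. With 65 to 180 reads per library, Psmb8, Psmb9 and Psmb10 are the members most limited by depth.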

Other observations

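Along chromosome 17 the level of the log2 change varied beyond the class I region. Tested genes lying 5 to 7 Mb after the Tap1 start had a median of 0.38 (5 genes), and those at 9 to 11 Mb a median of 0.77 (6 genes), with 0 of those 6 negative. Genes at -3 to -1 Mb had a median of -0.23 (22 genes), and those at -13 to -11 Mb a median of 0.23 (25 genes, 3 of them negative). With the GC and length trend removed, the median was 0.07 at -13 to -11 Mb and -0.20 at -3 to -1 Mb. In that fit it was 0.47 at 5 to 7 Mb and 0.68 at 9 to 11 Mb. The bands hold few genes at 5 to 11 Mb, and were drawn after the data were seen.

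Among genes of the pathway that did not pass the limma test, Erap1, which trims peptides in the endoplasmic reticulum, had 4.09 and 4.91 FPKM in WT and 7.36 and 10.4 FPKM in Calu-KO (log2 change 0.83, adjusted p = 0.0943). H2-M3, which presents formylated peptides, had 3.65 and 5.36 FPKM in WT and 2.14 and 1.86 FPKM in Calu-KO (log2 change -0.86, adjusted p = 0.0931). Both were picked after their values were seen.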
